A study of Homo sapiens with 6 samples.

Results

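The genes of glycolysis and of the hypoxia response were examined in cultured human umbilical vein endothelial cells (HUVECs), a primary cell type. They had received an siRNA directed at ANRIL, a long noncoding RNA, or a scrambled control siRNA. The list held 38 genes, and 35 of them could be read, out of 19775 genes tested. SLC16A1, SLC16A3 and CA9 were not read, because no probe set carried their symbol alone in the annotation used. The members comprised 16 glycolytic enzymes, 3 regulators of glycolytic flux, 2 glucose transporters, 6 components of the hypoxia-inducible factor (HIF) pathway and 8 other HIF targets. Each gene was read by its probe set of highest mean over all arrays, in log2 intensity as deposited.

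Both groups had 3 Affymetrix Human Genome U133 Plus 2.0 arrays, 1 per transfected sample. The ANRIL siRNA cells and the scrambled siRNA cells were grown in the same endothelial growth medium with 2% fetal bovine serum and with vascular endothelial, fibroblast, epidermal and insulin-like growth factors, ascorbic acid, heparin, hydrocortisone and antibiotics, at 37 °C under 5% CO2, and both were transfected with TransIT-X2. The submitters speak of 3 sets of cells, without saying whether a set is a donor or a culture, or whether samples of the same number in both groups share one. No oxygen level or culture time is given. The p-values therefore measure the spread between these samples, which may be technical. A single siRNA duplex against ANRIL was used, and its strands are shown because they define the treatment. The 25-base sense strand pairs along its whole length with the 27-base antisense strand. The capitals mark bases 2 to 8 of the antisense strand as listed, which are its seed only if the strand acts uncut. Through its seed an siRNA can also bind other transcripts.
ANRIL siRNA, sense strand: ggauaugugccaugaguaagaauaa
ANRIL siRNA, antisense strand: uUAUUCUUacucauggcacauauccau

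Glycolysis splits glucose into pyruvate through a chain of enzymes, and most ATP of cultured endothelial cells is known to come from it. When oxygen is scarce, the prolyl hydroxylases stop marking HIF1A and EPAS1 for destruction by VHL, and these factors then pair with ARNT and induce glucose transporters, glycolytic enzymes, and genes of mitophagy, collagen hydroxylation and angiogenesis. PFKFB3 makes the activator of phosphofructokinase and is known as a driver of vessel sprouting.

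Over all probe sets, pairs of arrays of 1 group had r = 0.9971 to 0.9977 and pairs of unlike groups r = 0.9964 to 0.9974. The single probe set of ANRIL (CDKN2B-AS1) lay at percentile 4.6 of genes by mean signal. It read 3.69, 4.05 and 4.05 with ANRIL siRNA, against 4.08, 4.05 and 3.95 with control siRNA (difference -0.10 ± 0.10, SE, n = 3 per group, limma adjusted p = 0.606), so at this signal the arrays did not check the knockdown. Endothelial markers were bright, at percentiles 78.2 to 99.2, and all 13 lay lower with ANRIL siRNA (median difference -0.19). Their mean level was 11.29 to 11.38 with ANRIL siRNA and 11.49 to 11.56 with control siRNA. Leukocyte markers, at percentiles 7.9 to 57.9, lay higher at 8 of 9, with a mean level of 6.01 to 6.19 with ANRIL siRNA and 5.93 to 5.99 with control siRNA. Smooth muscle markers were above 0 at 6 of 8 (mean level 6.96 to 7.05 with ANRIL siRNA, 6.88 to 7.02 with control siRNA), fibroblast markers at 4 of 8 (5.70 to 5.72 and 5.67 to 5.72) and epithelial markers at 3 of 8 (6.97 to 6.996 and 6.99 to 7.02). RMA values have no true 0, so absence of a marker cannot be read from them. Among all genes, 87.7% of the brightest decile by mean signal lay lower with ANRIL siRNA, and 28.5% of the dimmest. After cyclic loess normalization 12 of 13 endothelial markers lay lower (median -0.11) and 7 of 9 leukocyte markers higher (median 0.12). The part of these marker shifts in the differences below was not tested. In such bulk samples, fewer cells of a type and less RNA per cell cannot be told apart.

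No hypoxia or glycolysis gene passed the threshold of an adjusted p of 0.05 in the limma fit over all 19775 genes, where the percentage of all genes called was 0.00 as well. With ANRIL siRNA 25 of 35 members lay lower, as did 51.3% of all genes and 74.1% of those above the median signal, where 34 of the 35 members were found. The most separated was ANGPTL4, a secreted inhibitor of lipoprotein lipase, which was 1.22-fold lower. PFKFB3, PKM, GPI and BNIP3L followed, at 1.13-fold to 1.16-fold lower. Without adjustment 5 members had p under 0.05, these 5, and all were lower, while 18.0% of all genes passed by that rule, 8.16% lower and 9.83% higher. At 10 members no ANRIL siRNA array reached into the range of the controls at the brightest probe set, again all lower, which is 28.6% of the 35. By that rule 12.8% of all genes were lower and 10.6% higher, and 23.2% of genes above the median signal were lower. As the mean of all probe sets, 9 members were lower without overlap, against 10.5% of all genes. By that mean 3 members were higher without overlap, for which the share of all genes was not counted.

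**Figure D1:**
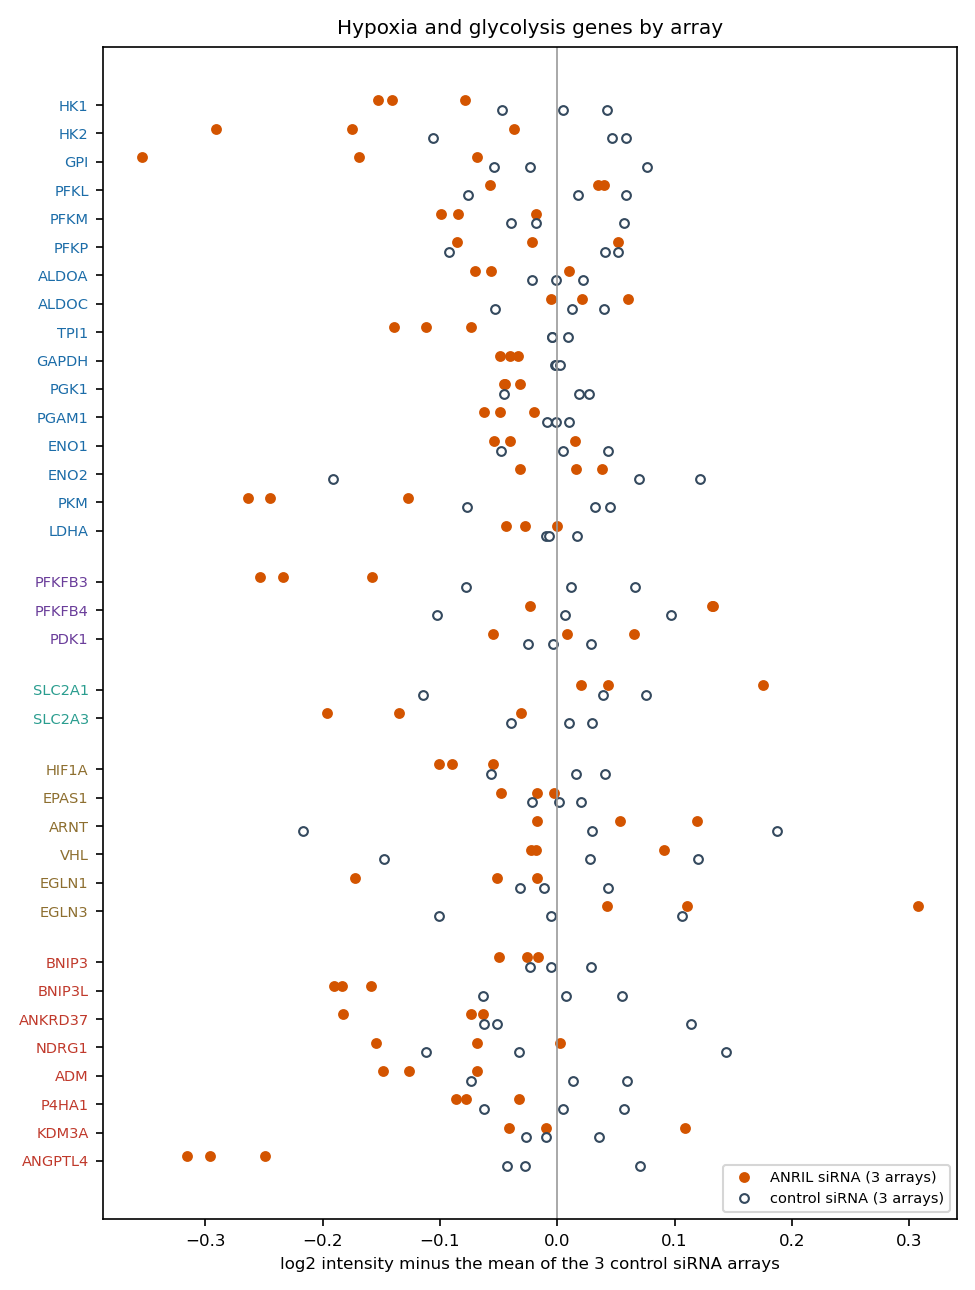
Log2 intensity of the 35 genes on each array, with the mean of the 3 control siRNA arrays of that gene subtracted (x axis), by gene and role (y axis, label colour by role). Filled points are the 3 ANRIL siRNA arrays and open points the 3 control siRNA arrays. The groups stand fully apart at 10 genes, most widely at ANGPTL4, and overlap at the other 25.

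The glycolytic enzymes are described in the order of the chain. Their 16 differences had a median of -0.04, which turned to 0.03 after cyclic loess normalization, and ran from -0.21 to 0.03. Of these, 13 were below 0 and 6 were lower without overlap between the groups. The 6 are 37.5% of the enzymes, against 35.9% in the brightest decile of all genes by mean signal, which held 10 of the 16. Hexokinase traps glucose in the cell as glucose 6-phosphate. HK1, its widely expressed form, read 12.01, 12.07 and 11.9998 with ANRIL siRNA, against 12.11, 12.20 and 12.16 with control siRNA. Every ANRIL siRNA array lay below every control array, and the difference was -0.12 ± 0.06 (SE, n = 3 per group, limma adjusted p = 0.303). HK2, the inducible form, differed by -0.17 ± 0.08 with overlapping groups, and its 95% interval reached from -0.34 to 0.01.

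GPI, which turns glucose 6-phosphate into fructose 6-phosphate, read 11.25, 11.54 and 11.44 with ANRIL siRNA, against 11.58, 11.68 and 11.55 with control siRNA. The groups did not overlap, though replicate 2 of the ANRIL siRNA arrays came close to the lowest control array. The difference was -0.20 ± 0.08 (95% interval -0.37 to -0.02, limma adjusted p = 0.241). It was -0.12 without ANRIL siRNA replicate 1, and -0.12 with overlapping groups after cyclic loess. Phosphofructokinase commits the sugar to glycolysis, and at their brightest probe sets its 3 genes stayed close to 0. They differed by 0.01 for the liver form PFKL, -0.07 for the muscle form PFKM and -0.02 for the platelet form PFKP, each with overlapping groups. The dimmer probe set of PFKL read -0.14 without overlap.

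The aldolase genes ALDOA and ALDOC, which split the 6-carbon sugar, differed by -0.04 and 0.03 with overlap. TPI1, which interconverts the products of that split, read 13.01, 13.07 and 13.04 with ANRIL siRNA, against 13.16, 13.14 and 13.14 with control siRNA. The groups did not overlap, though the difference was small, at -0.11 ± 0.06 (limma adjusted p = 0.339), and after cyclic loess it was -0.03 with overlap. GAPDH, the dehydrogenase often used as a reference gene, read 14.82, 14.81 and 14.80 with ANRIL siRNA, against 14.85, 14.85 and 14.86 with control siRNA. The groups did not overlap, yet the difference was only -0.04 ± 0.06 (limma adjusted p = 0.713) and turned to 0.02 after cyclic loess normalization. The 3 array control probe sets for GAPDH differed by -0.04 at the 3' end, -0.05 in the middle and -0.10 at the 5' end. The signal at the 3' end minus that at the 5' end was 0.05, 0.09 and 0.04 for GAPDH with ANRIL siRNA, against -0.01, 0.01 and -0.01 with control siRNA, and for ACTB 0.78, 0.81 and 0.56 with ANRIL siRNA, against 0.56, 0.59 and 0.49 with control siRNA. This measure of transcript integrity thus moved with the groups for GAPDH and overlapped for ACTB, and its part in the differences was not tested.

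PGK1, the first ATP-yielding enzyme, differed by -0.04 with overlap. PGAM1, the mutase after it, read 12.93, 12.98 and 12.95 with ANRIL siRNA, against 12.99, 13.01 and 12.99 with control siRNA, a separation without overlap but of only -0.04 ± 0.06 (limma adjusted p = 0.696) that turned to 0.03 after cyclic loess. The enolases ENO1 and ENO2 differed by -0.03 and 0.01. PKM, the pyruvate kinase that makes the final ATP, had the widest difference of the enzymes. It read 8.90, 9.04 and 8.92 with ANRIL siRNA, against 9.09, 9.20 and 9.21 with control siRNA, and the groups did not overlap (-0.21 ± 0.07, 95% interval -0.36 to -0.07, limma adjusted p = 0.176). LDHA, which turns pyruvate into lactate and is a textbook HIF target, differed by -0.02 with overlap. Its interval ran from -0.15 to 0.10.

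Of the flux regulators, PFKFB3 stood apart. It read 9.46, 9.54 and 9.44 with ANRIL siRNA, against 9.62, 9.76 and 9.71 with control siRNA. All 3 ANRIL siRNA arrays lay below the controls, by -0.21 ± 0.06 (95% interval -0.36 to -0.07, limma adjusted p = 0.17). PFKFB4, a related enzyme induced in hypoxia, read 7.83, 7.83 and 7.67 with ANRIL siRNA and 7.59, 7.79 and 7.70 with control siRNA. These groups overlapped, and the difference had the other sign, 0.08 ± 0.07 (limma adjusted p = 0.575). PDK1, a pyruvate dehydrogenase kinase, differed by 0.01 ± 0.06.

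The glucose transporters gave opposite signs and overlapping groups. SLC2A1 (GLUT1), the main glucose transporter of endothelium, read 8.32, 8.45 and 8.30 with ANRIL siRNA and 8.35, 8.16 and 8.32 with control siRNA (0.08 ± 0.07, limma adjusted p = 0.575). SLC2A3 (GLUT3), a high-affinity transporter, read 9.26, 9.16 and 9.10 with ANRIL siRNA and 9.32, 9.30 and 9.25 with control siRNA (-0.12 ± 0.06, limma adjusted p = 0.343). The SLC2A1 difference turned to -0.01 as the mean of both its probe sets, since the dimmer one read -0.11.

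At their brightest probe sets, the HIF pathway components showed no separation at any of 6 genes. HIF1A, the oxygen-regulated subunit, read 12.72, 12.67 and 12.68 with ANRIL siRNA, against 12.81, 12.79 and 12.72 with control siRNA, where only the highest ANRIL siRNA array overlapped the lowest control array (-0.08 ± 0.06, limma adjusted p = 0.473). EPAS1 (HIF2A), the subunit prominent in endothelium, differed by -0.02, ARNT by 0.05 and VHL by 0.02. The prolyl hydroxylase gene EGLN1 differed by -0.08. EGLN3, a hydroxylase that HIF itself induces, was the only dim member, at percentile 28.2. It read 5.84, 5.77 and 6.03 with ANRIL siRNA and 5.63, 5.72 and 5.83 with control siRNA, and the groups overlapped (0.15 ± 0.08, limma adjusted p = 0.349). Without ANRIL siRNA replicate 3 the difference was 0.08, and after cyclic loess it was 0.09. The arrays report RNA, whereas HIF1A is controlled mainly as a protein.

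Among the other HIF targets 7 of 8 measured genes were below 0, with a median of -0.09, and 3 were lower without overlap. The 3 are 37.5%, against 23.2% of all genes above the median signal, where all 8 lay. In the brightest decile of all genes, which held 4 of the 8, that share was 35.9%. ANGPTL4 read 10.72, 10.76 and 10.70 with ANRIL siRNA, against 10.99, 11.08 and 10.97 with control siRNA. The gap between the groups was wider than the range within either (-0.29 ± 0.06, 95% interval -0.42 to -0.15, limma adjusted p = 0.144), and ANGPTL4 ranked 102 of 19775 genes by p. BNIP3L, a mitophagy receptor, read 11.05, 11.02 and 11.02 with ANRIL siRNA, against 11.26, 11.22 and 11.14 with control siRNA. It did not overlap either (-0.18 ± 0.06, limma adjusted p = 0.187), while its relative BNIP3 differed by -0.03 with overlap at its brightest probe set and by -0.14 without overlap at its other one. ANKRD37, a small ankyrin-repeat protein, read 7.91, 7.92 and 7.80 with ANRIL siRNA, against 7.92, 7.93 and 8.09 with control siRNA. Its groups touched almost without a gap, and the difference of -0.11 ± 0.07 (limma adjusted p = 0.435) rested largely on control replicate 3, without which it was -0.05.

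The remaining targets overlapped. The vasodilator peptide gene ADM differed by -0.11 ± 0.06, NDRG1 by -0.07, the collagen prolyl hydroxylase gene P4HA1 by -0.07 and the histone demethylase gene KDM3A by 0.02. A list of HIF-induced genes outside the enzyme chain joined these 8 to PFKFB3, PFKFB4, PDK1, EGLN1 and EGLN3, and of its 13 measured genes 9 lay below 0, with a median of -0.07 and 4 without overlap. For the 16 enzymes those figures were 13, -0.04 and 6. The counts without overlap are 30.8% of the HIF-induced genes and 37.5% of the enzymes. Lower without overlap were 12.8% of all genes, 23.2% of those above the median signal and 35.9% of the brightest decile. Over all genes the median was -0.0046, and in the brightest decile it was -0.07.

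**Figure D2:**
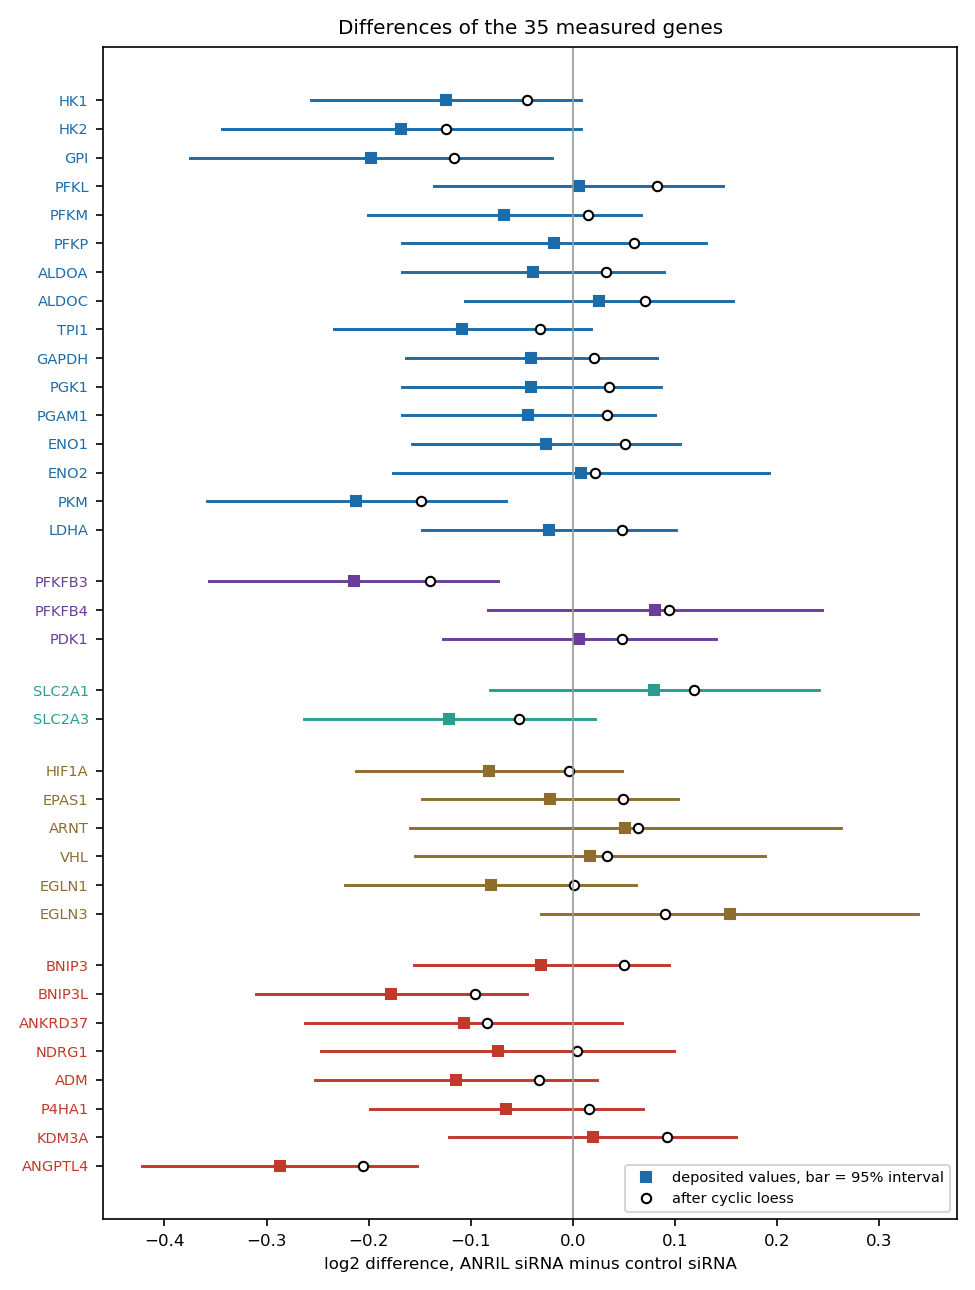
Log2 difference, ANRIL siRNA minus control siRNA (x axis), of the 35 genes by role (y axis). Squares are the deposited values with the 95% interval of the limma fit, and open circles the difference after cyclic loess normalization of the 6 arrays. The intervals of PKM, GPI, PFKFB3, BNIP3L and ANGPTL4 exclude 0, and after cyclic loess most other genes lie at or above 0.

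Signal strength moved with these differences. Genes were split into 10 equal groups by mean signal. In the brightest decile 87.7% of all genes lay lower with ANRIL siRNA, with a median of -0.07, and 35.9% were lower without overlap. In the dimmest decile 28.5% lay lower, with a median of 0.06. Of the 35 members 34 were above the median signal and 16 in the brightest decile, where 7 of 16 were lower without overlap and 6 of 16 were below that decile's median. Over all deciles, 14 of the 35 lay below the median of their own decile. Cyclic loess, which removes the trend with signal, left 12 of 35 members below 0 (median 0.02). Without overlap 5 members were then lower (background 8.61%) and 6 higher (background 11.2%). The 5 were ANGPTL4 (-0.21), PKM (-0.15), PFKFB3 (-0.14), BNIP3L (-0.10) and HK1 (-0.04), and the 6 were PFKL, ALDOA, PGAM1, EPAS1, BNIP3 and KDM3A, at 0.03 to 0.09. The median of the enzymes turned to 0.03 and that of the HIF-induced genes to 0.0041.

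**Figure D3:**
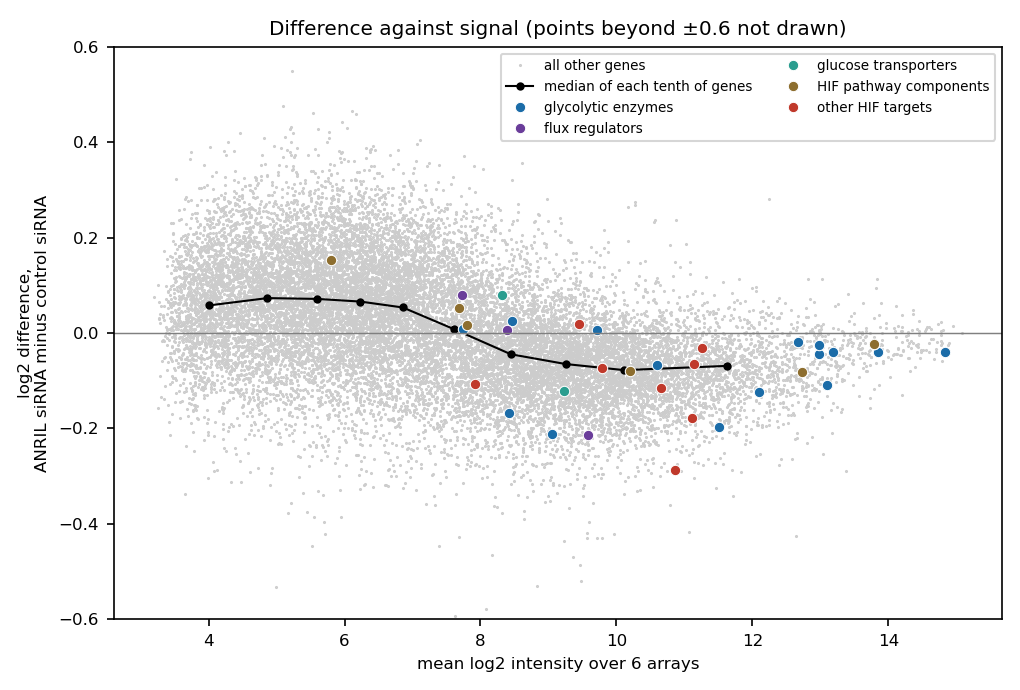
Log2 difference, ANRIL siRNA minus control siRNA (y axis), against the mean log2 intensity over 6 arrays (x axis). Small grey points are all other genes, the black line joins the medians of the 10 equal groups by signal, and coloured points are the 35 members by role. The line is above 0 for dim genes and at about -0.07 for the brightest, most members scatter about it, and ANGPTL4, PFKFB3 and PKM lie farthest under it.

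Which members passed depended on the variance prior, the signal filter, the scaling and single arrays. With the constant prior, ANGPTL4 passed when the fit held only genes above the median signal (limma adjusted p = 0.0225), where 254 of 9887 genes were called lower and 55 higher. With an intensity-trended robust prior, which gives bright genes the smaller spread they show, ANGPTL4 (limma adjusted p = 0.00363), BNIP3L (0.0477) and PFKFB3 (0.0483) passed as lower, 3 of 35, against 2.15% of all genes called lower and 0.582% higher by that rule. ELOC, PDK4 and others named below passed too. With that prior after cyclic loess, ANGPTL4 passed (0.0156), while PFKFB3 (0.143) and BNIP3L (0.263) did not. That fit called 75 of all genes lower and 59 higher. Leaving out single arrays under the trended prior, ANGPTL4 passed in 5 of 6 fits, all except that without control replicate 2, where 0 members passed. That fit called only 38 of 19775 genes lower and 2 higher. Without ANRIL siRNA replicate 1, ANRIL siRNA replicate 3 or control replicate 1, 102 to 116 genes were called lower and 16 to 33 higher. BNIP3L passed without ANRIL siRNA replicate 2 or without control replicate 3, and PFKFB3 without ANRIL siRNA replicate 2 only. The fit without control replicate 3 called 402 genes lower and 100 higher. Without ANRIL siRNA replicate 2, GPI, HK1, PKM and TPI1 also passed, 7 members in all, in a fit that called 1118 of 19775 genes lower and 350 higher.

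Other probe sets of the same gene were compared for the 24 members that had more than 1. Both ANGPTL4 probe sets were lower without overlap, by -0.29 and -0.38, and so were both of BNIP3L, by -0.18 and -0.24. Both PKM probe sets were lower (-0.21 and -0.13), the dimmer with overlap, and PFKFB3, GPI and HK1 had 1 probe set each, with no second reading. All 3 probe sets of SLC2A3, of ALDOA and of GAPDH lay below 0. Others split: ENO1 read -0.03 at its brightest probe set and -0.26 without overlap at the next, and 2 dimmer ones read 0.04 each. EGLN1 read -0.08, 0.15, -0.09 and 0.07 from the brightest to the dimmest, with no overlap at 0.15 (higher) and at -0.09 (lower). EPAS1 read -0.02 at its brightest probe set, -0.25 with overlap at the next and 0.08 at a dim one. PGK1 was lower at 3 of 6, its brightest ones, by -0.04, by -0.12 without overlap and by -0.14 with overlap. ARNT was lower at 1 of 7. TPI1 was lower at its 2 bright probe sets and at 0.05 at a dim one. The other, dimmer probe sets of PFKFB4 (0.15) and KDM3A (0.22) were higher without overlap. Probe sets of GAPDH, ALDOA, TPI1, PGK1, PGAM1, ENO1 and LDHA ending in _s_at or _x_at may also bind near-identical copies of these genes, so their values are uncertain in that respect.

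**Figure D4:**
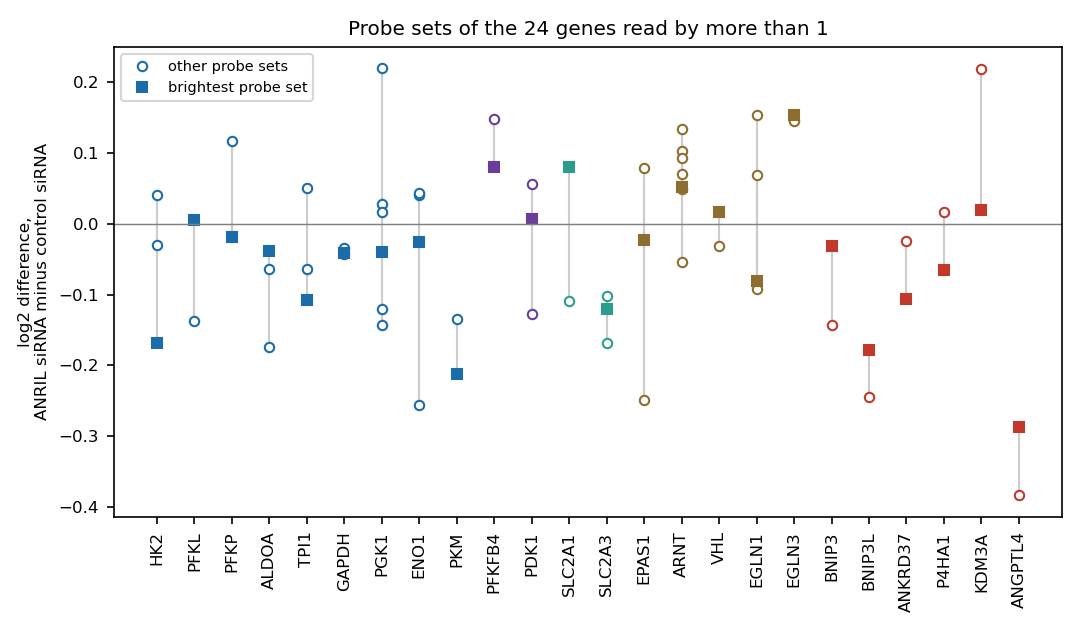
Log2 difference, ANRIL siRNA minus control siRNA (y axis), at every probe set of the 24 members with more than 1 (x axis, coloured by role). Filled squares are the brightest probe set, which represents the gene, and open circles the others. The probe sets of ANGPTL4, BNIP3L and PKM lie all below 0, while those of PGK1, ENO1 and EGLN1 spread to both sides.

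HIF binds the letters ACGTG or GCGTG in the hypoxia response elements of its targets, and these letters were searched in promoter windows from RefSeq (GRCh38.p14), 250 bases before to 50 after each start, on both strands, so that a CACGTG counts on either strand. Windows were found for 33 of the 38 members. ACGTG occurred in 24 of 61 member windows (39.3%), against 21.4% of all 35116 windows, and GCGTG in 39.3% against 36.5%. Some genes have several windows, which can overlap. By gene, ACGTG was in at least 1 window of 20 of the 33 members and of 6790 of all 27305 genes. Many members were listed as HIF targets, so these shares are no result of the arrays. Among measured members with a window, ACGTG was in at least 1 window of 6 of 9 that were lower without overlap and of 12 of 22 whose groups overlapped. PGK1, a classic HIF target, read -0.04 at its brightest probe set and -0.12 without overlap at the next. Its window is shown for comparison with those of ANGPTL4, PFKFB3, PKM and GPI, among the genes most separated on the arrays (none was found for BNIP3L). Each is written 5' to 3' on the gene's own strand, and capitals mark ACGTG and GCGTG in either orientation. PFKFB3 has 2 starts in the table.
ANGPTL4, chr19:8363905-8364204, plus strand: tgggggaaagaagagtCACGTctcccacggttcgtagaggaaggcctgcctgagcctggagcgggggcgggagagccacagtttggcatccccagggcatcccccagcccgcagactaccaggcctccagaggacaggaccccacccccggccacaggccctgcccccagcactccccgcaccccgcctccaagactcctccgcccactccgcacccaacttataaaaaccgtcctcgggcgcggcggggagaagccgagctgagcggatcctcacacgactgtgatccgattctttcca
PFKFB3, chr10:6144671-6144970, plus strand: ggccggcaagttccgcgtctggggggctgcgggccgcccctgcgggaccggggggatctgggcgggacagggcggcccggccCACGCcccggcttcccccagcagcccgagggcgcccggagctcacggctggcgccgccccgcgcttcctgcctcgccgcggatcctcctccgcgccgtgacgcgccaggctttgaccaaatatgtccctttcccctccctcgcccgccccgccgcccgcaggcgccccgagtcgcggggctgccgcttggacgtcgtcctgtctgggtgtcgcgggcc
PFKFB3, chr10:6202682-6202981, plus strand: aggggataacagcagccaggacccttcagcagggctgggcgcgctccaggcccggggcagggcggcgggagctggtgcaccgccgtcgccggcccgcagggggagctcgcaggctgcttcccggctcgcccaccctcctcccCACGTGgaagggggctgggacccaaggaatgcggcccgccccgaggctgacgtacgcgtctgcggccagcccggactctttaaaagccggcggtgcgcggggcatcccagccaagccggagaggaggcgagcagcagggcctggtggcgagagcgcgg
PKM, chr15:72231141-72231440, minus strand: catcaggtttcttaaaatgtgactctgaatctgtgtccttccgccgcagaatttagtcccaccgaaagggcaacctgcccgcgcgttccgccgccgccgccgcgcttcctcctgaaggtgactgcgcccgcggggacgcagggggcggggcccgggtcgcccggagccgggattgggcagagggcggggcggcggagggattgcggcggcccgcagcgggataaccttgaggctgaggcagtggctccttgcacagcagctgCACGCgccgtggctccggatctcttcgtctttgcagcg
GPI, chr19:34364742-34365041, plus strand: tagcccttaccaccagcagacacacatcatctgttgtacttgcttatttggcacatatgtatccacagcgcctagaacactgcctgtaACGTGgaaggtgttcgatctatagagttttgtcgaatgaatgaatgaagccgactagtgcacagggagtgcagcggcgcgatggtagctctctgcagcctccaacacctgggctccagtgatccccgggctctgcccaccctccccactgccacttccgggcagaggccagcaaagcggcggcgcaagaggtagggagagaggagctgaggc
PGK1, chrX:78103998-78104297, plus strand: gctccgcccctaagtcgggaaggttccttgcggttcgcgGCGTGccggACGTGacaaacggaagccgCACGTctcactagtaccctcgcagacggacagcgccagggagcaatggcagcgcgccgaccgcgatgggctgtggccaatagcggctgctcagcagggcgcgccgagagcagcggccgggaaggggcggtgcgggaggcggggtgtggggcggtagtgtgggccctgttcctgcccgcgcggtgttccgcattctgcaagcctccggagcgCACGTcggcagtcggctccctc
ANGPTL4 and GPI hold ACGTG once, PKM holds only GCGTG, and PGK1 holds ACGTG 3 times. A match is no proof of a site, and elements farther from the start lie outside these windows.

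Of the other genes of these pathways, in the 3 lists that follow, 0 passed the threshold in the constant-prior fit. Their values are those of the brightest probe set only, and their other probe sets are not shown. Of 38 further genes of glucose, pyruvate and pentose phosphate metabolism, 26 lay below 0 (median -0.04), and 19 did after cyclic loess. At an unadjusted p under 0.05, 4 were lower and 2 higher, against 8.16% and 9.83% of all genes. PDK4, a pyruvate dehydrogenase kinase induced by fasting, read 8.84, 8.76 and 8.59 with ANRIL siRNA, against 9.01, 9.08 and 9.05 with control siRNA. Its groups stood well apart (-0.32 ± 0.07, limma adjusted p = 0.147). It passed with the trended prior (0.0144) but missed the threshold with that prior after cyclic loess (0.0503). This was the brightest of 3 PDK4 probe sets. As the mean of all probe sets, the lowest difference of any gene of this list was -0.19. The sugar transporter genes SLC2A4 (0.20 ± 0.06) and SLC2A6 (-0.19 ± 0.07) and the pyruvate kinase gene PKLR (0.24 ± 0.09) followed by p, of which SLC2A4 and PKLR were dim.

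Of 16 further HIF pathway components 12 lay below 0 (median -0.03), and 8 did after cyclic loess. At an unadjusted p under 0.05, 1 was lower and 0 higher. ELOC, a subunit of the VHL ubiquitin ligase, differed by -0.15 ± 0.06, CITED2, a competitor of HIF for its coactivators, by -0.13 ± 0.06, and those coactivators by -0.09 ± 0.06 (CREBBP) and -0.10 ± 0.09 (EP300). ELOC passed with the trended prior (limma adjusted p = 0.046) and not after cyclic loess (0.286). Of 51 other genes known to be induced in hypoxia, 42 were above the median signal, where 74.1% of all genes lay lower. Of the 51, 36 lay below 0 (median -0.07). At an unadjusted p under 0.05, 11 were lower and 1 higher, against 8.16% and 9.83% of all genes. After cyclic loess 29 of the 51 lay below 0 (median -0.01), with 5 lower and 3 higher by that rule. The share of all genes by that rule after cyclic loess was not counted. CXCR4, a chemokine receptor, differed by -0.52 ± 0.12, the Notch effector gene RBPJ by -0.22 ± 0.07, PNRC1 by -0.19 ± 0.06 and the dim PPFIA4 by 0.22 ± 0.06. With the trended prior CXCR4, RBPJ, WSB1 and TEK, which is also on the endothelial marker list, passed as lower, and after cyclic loess with that prior their adjusted p-values were 0.118 to 0.23, with differences of -0.45 for CXCR4, -0.14 for RBPJ, -0.10 for WSB1 and -0.11 for TEK. Of further members of that list, chosen after their values were seen, STC1, a secreted glycoprotein gene, differed by -0.43 ± 0.14 without overlap (limma adjusted p = 0.177), and VEGFA, the angiogenic growth factor gene, by -0.0036 (95% interval -0.14 to 0.13).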

How the data were processed

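The data are log2 intensities of 54675 Affymetrix probe sets for 6 arrays. RMA, affy and limma are the tools that the submitters' processing notes name for the deposited log2 values. Versions and filters are not stated there. This method, RMA, normalizes across arrays, which can hide a shift common to most genes. The labels name the groups. Control probe sets (62) were left out, and of the 54613 others 41091 had 1 gene symbol in the platform annotation, 1801 several and 11721 none, with 41037 matched to the RefSeq gene table. Genes were named only from probe sets with 1 symbol. Differences are ANRIL siRNA minus control siRNA, from lmFit and eBayes of limma 3.58.1 (R 4.3.3) with a constant prior, Benjamini-Hochberg adjusted over 19775 genes at 0.05, two-sided, without a replicate block. The fit was tested on simulated data. Values for each array are given for members without overlap, those passing and the 2 of smallest p per role, and the text names from each other list the 4 of smallest p and those passing. The members and lists were chosen with earlier results of these data known. The number of arrays limits the precision, with a median residual SD of 0.05 in the brightest decile of genes and 0.11 in decile 3 from the dim end. Alternatives covered the prior, array weights, scaling, a signal filter, the probe set rule and each array left out.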

Additional observations from a re-analysis of the deposited data

How the results depend on the processing

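The constant-prior limma fit called 0 of 35 members with a smallest adjusted p of 0.144, and likewise 0 with array weights, cyclic loess, arrays centred on their medians, the mean of all probe sets and repeated quantile normalization. Leaving out _s_at and _x_at probe sets removed ANGPTL4, PFKFB3 and GPI, so its 0 calls among the 22 members remaining say nothing of these genes. The calls were 1 member among genes above the median signal, 3 with the intensity-trended robust prior and 1 with that prior after cyclic loess. Leaving out 1 array gave 0 calls with the constant prior and 0 to 7 with the trended one (2 without control replicate 3). Those trended fits called 38 to 1118 of 19775 genes lower and 2 to 350 higher. Samples were not treated as paired by replicate number, since no label ties them and the correlations of their deviations were 0.04, 0.18 and -0.02. With the replicate block 0 members were called, the adjusted p of ANGPTL4 being 0.173. The median of the glycolytic enzymes was -0.091 with centred arrays, 0.0273 after cyclic loess with either prior and 0.0052 after repeated quantile normalization, and that of the HIF-induced genes -0.12, 0.0041 and 0.0095. With 1 array left out they lay between -0.06 and -0.03 and between -0.09 and -0.03. Members lower without overlap numbered 18 with centred arrays (19.3% of all genes), 5 after cyclic loess (8.61%), 4 with _s_at and _x_at probe sets left out (10.3%), 6 after repeated quantile normalization (7.85%) and 10 to 17 with 1 array left out (14.7% to 24.4%), where fewer arrays make separation easier. As the mean of all probe sets they numbered 9 (10.5%), and 3 members were higher without overlap. Of the 15 members with values for each array, signs turned for GAPDH (0.0208 after cyclic loess with either prior), PGAM1 (0.0332 after cyclic loess with either prior, 0.0091 after repeated quantile normalization), SLC2A1 (-0.0147 as the mean of probe sets, -0.11 without _s_at and _x_at probe sets) and TPI1 (0.0508 without them). Of the others, 11 turned from below to above 0 after cyclic loess, PFKM, PFKP, ALDOA, PGK1, ENO1, LDHA, EPAS1, EGLN1, BNIP3, NDRG1 and P4HA1. The trended prior after cyclic loess or with an array left out, and the counts without overlap under alternatives, were chosen after seeing the data. The cause of these changes was not tested.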
